A study of Mus musculus with 157 samples.

Results

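The genes described are the replication-dependent type histone genes of the mouse, taken as every protein coding gene of the deposited table whose symbol starts with Hist1h, Hist2h, Hist3h or Hist4h. The rule found 50 members among 19600 genes, 41 of them in the Hist1 cluster on chromosome 13, 6 in Hist2 on chromosome 3, 2 in Hist3 on chromosome 11 and 1 in Hist4 on chromosome 6. By the histone they encode they comprise 4 H1, 10 H2A, 14 H2B, 11 H3 and 11 H4 genes. The cells were primary splenic B cells of C57BL/6Babr mice, cultured in all groups with lipopolysaccharide (LPS) at 10 µg/ml, a bacterial mitogen. One group had LPS alone for 48 h (LPS). A second group then had the topoisomerase II poison etoposide at 20 µM for 4 h (LPS+ET), which leaves DNA double-strand breaks. The third group had 47 h of LPS, followed by 1 h with KU55933 at 10 µM, which inhibits the kinase ATM, and then the same etoposide (LPS+ET+KU). No group had the inhibitor without etoposide, so effects of the inhibitor by itself and on the response to damage cannot be told apart. After cycloheximide, cytoplasmic extracts were run on sucrose gradients, and the mRNA of fractions 4 to 7 (monosomes), 8 to 10 (light polysomes) and 11 to 16 (heavy polysomes) was sequenced from its 3′ end, with 4 gradients of 13 fractions per treatment. Gradients are named by treatment and by the code in their column names (LUL15 to LUL18), here called the pool. Each pool held 1 gradient of each treatment, and the column names do not say what the code stands for. No source used here ties a gradient to separate animals, so p-values measure the spread between gradients.

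Histones package DNA into nucleosomes, and replication-dependent histone genes supply them while DNA is copied in S phase. Their mRNAs are unusual in that the main form carries no poly(A) tail. The transcript is cut a few bases after a conserved stem-loop, which is bound by the stem-loop binding protein Slbp, and this form is rapidly lost when DNA synthesis stops. Some of these genes also use a poly(A) signal farther downstream, which gives a longer polyadenylated mRNA that does not depend on S phase in the same way. The libraries were primed from poly(A) tails, so the bulk of the stem-loop form was not expected to be captured.

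The histone genes held 36902 counts in all, which is 0.0235% of the 156885278 counts of the table. Member totals ran from 2 to 14797 counts with a median of 120, 21 members had under 100 counts over all libraries, and 15 were at 0 in at least 1 gradient. Hist1h4i, an H4 gene, held 40.1% of the member counts by itself. Gradient totals over all genes lay between 6404957 and 21449781 counts, and 29 of the 50 members had enough counts to be tested between treatments. The gradient LPS+ET of LUL16 stood apart: it had the lowest total, and heavy fractions gave 30.4% of its counts against 60.5% to 68.2% in the other LPS+ET gradients. Calls of members between treatments that changed without it are given beside the result. The share of counts from heavy fractions also differed between the other treatments. For LUL15, LUL16, LUL17 and LUL18 it was 55.4%, 52.3%, 55.6% and 62.4% in LPS. In LPS+ET+KU it was 43.1%, 37.6%, 55.5% and 51.4%, in the same order. Values summed over all fractions give more weight to fractions with more counts, so this weighting differed between treatments.

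The 3′ ends at which members were counted fell into a near and a far position. A stem-loop of 16 bases (6 bases, a loop, and 6 bases that pair with the first 6) was found in the GENCODE M21 transcripts of 39 of the 50 members, and in 22 of them it read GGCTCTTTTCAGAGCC. The same motif lay in the 100 bases after the stop codon of 1 of 15514 other genes (0.00645%), namely H2afx, which encodes the H2A.X variant. For the other 11 members no match lay in the annotated transcript, and sequence past its end was not analysed here. Windows of 30 bases show the motif (GRCm38, 5′ to 3′ on the strand of the gene), with the stem-loop in capitals, for members that lead the results.
Hist1h4i stem-loop (chr13:22040956-22040985, minus strand): taaaGGCCCTTTTTAGGGCCaccacaaaat
Hist1h1c stem-loop (chr13:23739508-23739537, plus strand): aaaaGGCTCTTTTCAGAGCCaccactccca
Hist3h2a stem-loop (chr11:58955168-58955197, plus strand): caaaGGCTCTTTTCAGAGCCacccacaacc
Hist3h2ba stem-loop (chr11:58949345-58949374, plus strand): caaaGGCTCTTTTCAGAGCCaccttccaag
Hist1h4b stem-loop (chr13:23757362-23757391, plus strand): aaaaGGTCCTTTTCAGGACCactcactgaa
Hist1h4d stem-loop (chr13:23581946-23581975, plus strand): caaaGGCCCTTTTCAGGGCCactaccttct

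Hist1h4b (798 counts) and Hist1h4d (351 counts) were counted inside these windows, 5 and 4 bases past the last base of the stem-loop. Of the 75 counted sites of the members, 27 lay 4 to 9 bases past a stem-loop, which is 43 to 76 bases after the stop codon, and held 6192 counts, and none of the 27 had AATAAA or ATTAAA, the common poly(A) signals, in the 40 bases before it. A further 25 sites lay downstream of the stem-loop and held 26204 counts. Of these, 18 lay within annotated transcript sequence, and 11 of the 18, with 20781 counts, had one of these signals in the 40 bases before the site. The windows that end at such sites, or 3 bases before it for Hist2h2be, are shown with the signal in capitals, for the genes with the most counts and for Hist2h2be, for which no stem-loop was found.
Hist1h4i counted site (chr13:22040636-22040665, minus strand): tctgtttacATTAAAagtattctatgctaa
Hist1h1c counted site (chr13:23740334-23740363, plus strand): atgcttctAATAAAaagcgtttagttttca
Hist3h2ba counted site (chr11:58949504-58949533, plus strand): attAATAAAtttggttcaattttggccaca
Hist2h2be counted site (chr3:96223709-96223738, plus strand): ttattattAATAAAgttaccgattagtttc

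All 4 windows lie in 3′ untranslated exons. Hist1h4i was counted mainly at the site shown, 330 bases past its stem-loop (13861 of 14797 counts), and Hist1h1c, an H1 linker histone gene, only 836 bases past its stem-loop. Hist3h2a, an H2A gene, had its counts 424 and 997 bases past the stem-loop, with neither signal found, and both sites lie in the span of Trim17 on the same strand, so reads of Trim17 cannot be told apart from its own. Likewise the site of Hist2h3c1 lies in Gm20634 on the same strand. In 37 members the 50 bases before the main site could be compared, and none shared them with another member. The members were divided by the position that held over 50% of their counts, a division made after the positions had been seen. The distal class, counted beyond 80 bases after the stop codon, had 17 members and 75.6% of the counts. No stem-loop was found for its members Hist1h2bc, Hist2h2be, Hist1h4k and Hist1h1b. The main sites of Hist1h2bm, Hist1h4k, Hist1h1b and Hist1h2bb lay 1186, 3287, 1231 and 264 bases beyond the annotated transcripts. The proximal class, counted at 30 to 80 bases after the stop codon, the span that held the sites at stem-loop ends, had 29 members and 23.6%. For its members Hist1h2ai, Hist1h3h, Hist1h3i, Hist1h2an and Hist1h2bl no stem-loop was found, and their class rests on distance alone. The 4 others (Hist1h2be, Hist2h2bb, Hist2h4 and Hist1h2al, 0.767%) had no such majority. Hist1h2ae, an H2A gene with 52.3% proximal and 47.7% distal counts, is proximal by a narrow margin, and counts per site were given over all libraries together and not for each gradient.

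**Figure D1:**
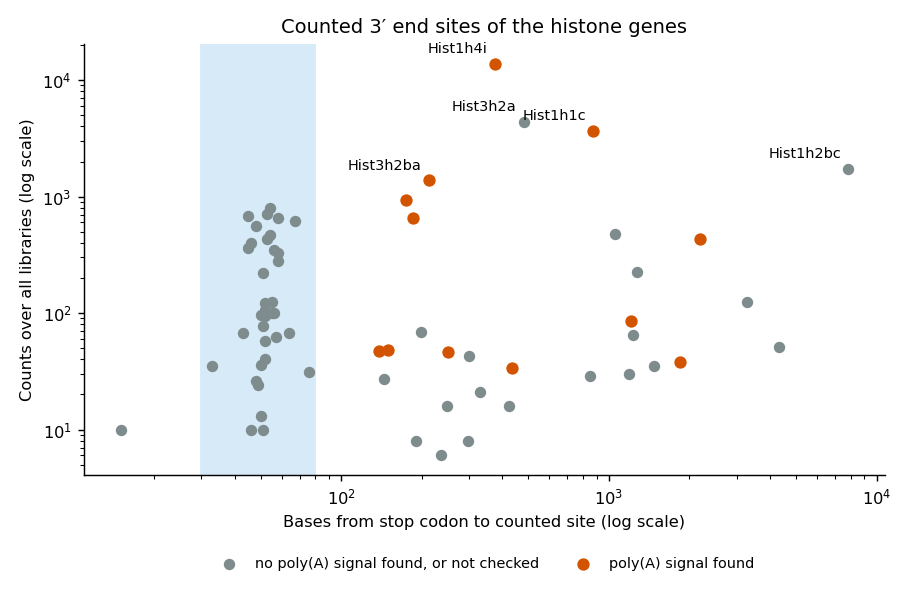
Each point is 1 counted 3′ end site of a histone gene, by its genomic distance after the stop codon (x, bases, log scale) and its counts over all libraries (y, log scale), with the shaded band at 30 to 80 bases. The sites with the most counts (Hist1h4i, Hist3h2a, Hist1h1c, Hist1h2bc, Hist3h2ba) lie to the right of the band. No site inside the band had a poly(A) signal found, but sites there beyond the annotated transcripts, such as that of Hist1h2ai, or in an intron could not be checked.

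Histone mRNA of distal ends was lower after etoposide and overlapped the LPS range with the ATM inhibitor, while proximal ends differed less. Levels are given as CPM, counts of a gene per 1000000 counts of the gradient, over fractions 4 to 16. The 17 distal members summed to 236, 216, 211 and 172 CPM in the LPS gradients of LUL15 to LUL18, in that order. In LPS+ET they summed to 89.3, 136, 71.6 and 69.5 CPM, and in LPS+ET+KU to 248, 235, 181 and 195 CPM. All 4 LPS+ET gradients lay below all others, and the LPS and LPS+ET+KU gradients overlapped. The means were 209 ± 26.5, 91.6 ± 30.97 and 215 ± 32.05 CPM (SD, n = 4), and without LUL16 that of LPS+ET was 76.8 ± 10.8 CPM (n = 3). Without Hist1h4i the distal sum was 103 ± 10.8 CPM in LPS, 39.4 ± 5.57 under LPS+ET and 107 ± 33.3 under LPS+ET+KU. The 29 proximal members summed to 59.5 ± 7.37, 54.4 ± 19.8 and 52.6 ± 17.6 CPM, and the 3 treatments overlapped. In bulk samples like these, fewer cells that hold an mRNA and less of it per cell cannot be told apart.

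By the protein encoded, H2A genes summed to 74.7 ± 11.4 CPM in LPS, 32.2 ± 2.12 under LPS+ET and 53.9 ± 7.56 under LPS+ET+KU. Hist3h2a, whose sites lie in the span of Trim17, held 4882 of the 8485 H2A counts, so the H2A sums rest largely on this gene. H4 genes, of which Hist1h4i is the main one, stood at 120 ± 17.2, 63.4 ± 31.4 and 119 ± 48.95 CPM. H1 genes were at 24.8 ± 1.34, 12.5 ± 2.60 and 38.6 ± 17.8 CPM. The H2B sums were 36.5 ± 5.64, 23.6 ± 11.8 and 39.5 ± 9.12 CPM. For H2A the 3 treatments did not overlap. For H4 and H2B the highest LPS+ET gradient, at 109 and 41.1 CPM, lay within the LPS range. For H1, LPS+ET lay below LPS, and LPS+ET+KU ran from 13.1 to 54.6 CPM and overlapped both. H3 genes, of which 8 of 11 are proximal, summed to 14.2 ± 3.37, 15.4 ± 7.22 and 18.2 ± 8.11 CPM, with overlap of all 3 treatments. Without LUL16 the LPS+ET means were 31.4 ± 1.63 CPM for H2A, 48.1 ± 8.57 for H4, 13.4 ± 2.35 for H1, 17.8 ± 1.94 for H2B and 11.9 ± 1.53 for H3 (n = 3).

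Each gene was tested with edgeR's quasi-likelihood test over 12755 genes, and the call required an adjusted p (Benjamini-Hochberg) below 0.01. In LPS+ET against LPS, 2 of the 29 members tested were called, where 12.7% of all genes were called, and both fell (4.81% of all genes were called lower). The members' median log2 fold change was -0.20, against 0.03 over all genes tested. Both called members, Hist3h2a and Hist3h2ba, are the 2 genes of the Hist3 cluster. For LPS+ET+KU against LPS the fit called 1 member (10.7% of all genes), Hist1h4d, which was lower, and the member median was -0.03 against 0.09. Between the etoposide groups, LPS+ET+KU against LPS+ET, 1 member was called (0.455% of all genes), Hist3h2a, which was higher, and the member median was 0.30 against 0.04. LPS+ET and LPS+ET+KU are both compared with the same LPS gradients. The first and the last comparison likewise share the LPS+ET gradients, so low values there give a fall in one and a rise in the other.

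The pools paired the gradients, and taking the pool as a replicate block raised these counts. LPS+ET against LPS then had 6 members called, all lower (26.7% of all genes called): Hist1h4d, Hist3h2ba, Hist1h1c, Hist2h2be, Hist1h4i and Hist3h2a. LPS+ET+KU against LPS had 4 (28.1% of all genes), with Hist1h4d, Hist1h2bk and Hist3h2a lower and Hist1h2bm higher. LPS+ET+KU against LPS+ET had 4, all higher (6.36% of all genes): Hist3h2ba, Hist1h1c, Hist1h4i and Hist3h2a. Of the 2 calls in LPS+ET against LPS, that of Hist3h2ba was lost without LPS of LUL15, LUL16 or LUL17 or without LPS+ET of LUL15, LUL17 or LUL18 (1 member called), and 5 were called without LPS+ET of LUL16 or without LPS+ET+KU of LUL16. The 1 call in LPS+ET+KU against LPS, Hist1h4d, was kept without LPS of LUL16 or LPS+ET of LUL15 and lost without any other gradient. Without LPS+ET+KU of LUL16 the 2 members called there were others, Hist1h1c and Hist1h2bm, both higher. The 1 call in LPS+ET+KU against LPS+ET was lost (0 called) without any 1 gradient other than LPS+ET of LUL16 (3 called) or LPS+ET+KU of LUL16 (2 called).

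Hist3h2a had 52.7, 46.1, 52.7 and 40.05 CPM in the LPS gradients of LUL15 to LUL18, 12.2, 6.40, 13.3 and 10.0 in LPS+ET, and 39.6, 19.1, 33.3 and 38.3 in LPS+ET+KU. The 3 treatments did not overlap, and LPS+ET+KU lay between the other two. The log2 fold change was -2.29 ± 0.26 (SE, adjusted p = 3.54e-05) in LPS+ET against LPS and 1.62 ± 0.25 (adjusted p = 0.00607) in LPS+ET+KU against LPS+ET. Against LPS the inhibitor group had -0.67 ± 0.24 (adjusted p = 0.0611), which was called with the pool as a block (-0.73 ± 0.18, adjusted p = 0.00539). With any 1 gradient left out the fall after etoposide stayed called.

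Hist3h2ba, an H2B gene, had 13.4, 13.1, 11.2 and 8.25 CPM in LPS, 3.06, 8.59, 2.87 and 3.08 under LPS+ET and 12.6, 11.4, 7.36 and 6.91 under LPS+ET+KU. The LPS+ET gradient of LUL16 overlapped the LPS range and the other 3 lay below it. The log2 fold changes were -1.53 ± 0.35 (adjusted p = 0.00708) for etoposide against LPS and 1.14 ± 0.35 (adjusted p = 0.115) for the inhibitor group against LPS+ET. Without LPS+ET of LUL16 they were -2.07 ± 0.26 (adjusted p = 0.000128) and 1.67 ± 0.25 (adjusted p = 0.00474), both called, and with the pool as a block the latter was 1.20 ± 0.24 (adjusted p = 0.00527).

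Hist1h4i had 123, 112, 105 and 84.9 CPM in LPS, 48.5, 89.8, 34.3 and 36.3 under LPS+ET and 104, 172, 75.1 and 81.9 under LPS+ET+KU. Pool LUL16 gave the highest value under both etoposide treatments, and the LPS+ET value of that pool lay within the LPS range. The log2 fold change was -1.14 ± 0.32 (adjusted p = 0.0222) for LPS+ET against LPS and 1.05 ± 0.32 (adjusted p = 0.113) for LPS+ET+KU against LPS+ET, neither of them called. Without LPS+ET of LUL16 the former was -1.56 ± 0.27 (adjusted p = 0.00131), which was called, and the latter 1.47 ± 0.27 (adjusted p = 0.0101), which was not. Without LPS+ET+KU of LUL16 they were -1.14 ± 0.28 (adjusted p = 0.00818, called) and 0.73 ± 0.29 (adjusted p = 0.223). With the pool as a block, Hist1h4i fell by 1.25 on the log2 scale after etoposide (adjusted p = 8.13e-05) and was higher by 1.08 with the inhibitor (adjusted p = 0.00156).

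Hist1h1c had 24.5, 24.2, 21.5 and 23.4 CPM in LPS, then 13.2, 8.27, 10.2 and 9.83 under LPS+ET and 52.6, 12.0, 39.9 and 42.5 under LPS+ET+KU. All LPS+ET gradients lay below LPS, and 3 of the 4 LPS+ET+KU gradients lay above it. LPS+ET+KU of LUL16 stood below LPS, inside the range of LPS+ET. The log2 fold changes were -1.29 ± 0.33 (adjusted p = 0.012) and, for LPS+ET+KU against LPS+ET, 1.82 ± 0.33 (adjusted p = 0.0154). Both were called with the pool as a block (-1.36 ± 0.29, adjusted p = 0.00184, and 1.75 ± 0.28, adjusted p = 0.00154). Without LPS+ET+KU of LUL16 they were likewise called (-1.30 ± 0.15, adjusted p = 4.65e-05, and 2.12 ± 0.16, adjusted p = 3.62e-05), as was the difference of LPS+ET+KU from LPS (0.82 ± 0.16, adjusted p = 0.00249).

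Hist1h2bc, an H2B gene, had 13.2, 12.3, 13.4 and 9.71 CPM in LPS, 6.29, 14.8, 5.04 and 5.04 under LPS+ET and 24.7, 11.4, 13.8 and 13.6 under LPS+ET+KU. The LUL16 gradient of LPS+ET was above every LPS gradient, and the other 3 were below. Its log2 fold changes were -0.77 ± 0.34 (adjusted p = 0.124) and 1.02 ± 0.34 (adjusted p = 0.142) in the same order of comparisons. Without LPS+ET of LUL16 both were called (-1.29 ± 0.24, adjusted p = 0.00196, and 1.53 ± 0.24, adjusted p = 0.00508). Hist2h2be, also an H2B gene, was at 4.06, 3.70, 3.04 and 2.75 CPM in LPS, 1.83, 2.19, 0.931 and 1.54 under LPS+ET and 3.81, 3.08, 2.04 and 3.53 under LPS+ET+KU. LPS and LPS+ET did not overlap, and the log2 fold change was -1.20 ± 0.30 (adjusted p = 0.0116), called with the pool as a block (-1.22 ± 0.25, adjusted p = 0.00151) and without LPS+ET of LUL16 (-1.38 ± 0.31, adjusted p = 0.00688).

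Hist1h4d was the 1 proximal member called between treatments in the fit without the block, and with the block Hist1h2bk was called too, in LPS+ET+KU against LPS (-0.79 ± 0.22, adjusted p = 0.00963). It had 3.19, 2.42, 6.29 and 4.20 CPM in LPS, 0.786, 1.41, 1.94 and 1.88 under LPS+ET and 0.897, 1.45, 1.77 and 1.20 under LPS+ET+KU. Both etoposide treatments lay below LPS without overlap and overlapped each other. The log2 fold change was -1.66 ± 0.39 (adjusted p = 0.00893) in LPS+ET+KU against LPS and -1.49 ± 0.40 (adjusted p = 0.0152) in LPS+ET against LPS, and between the 2 etoposide groups it was -0.17 ± 0.41 (adjusted p = 0.887). The counts were small, with 8 to 58 per gradient. The call against LPS had adjusted p of 0.01 to 0.028 when the gradients that ended it were left out.

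Hist1h4b, whose site lies on the other strand from 4930558J22Rik, showed the common pattern of the proximal class. It stood at 6.37, 6.48, 4.88 and 4.05 CPM in LPS, 5.24, 9.68, 3.26 and 2.82 under LPS+ET and 4.26, 8.62, 1.90 and 2.78 under LPS+ET+KU, with overlap throughout. Its log2 fold change was -0.20 ± 0.46 in LPS+ET against LPS (adjusted p = 0.803). Hist1h2ae, of mixed ends, had 7.39, 6.17, 21.8 and 12.1 CPM in LPS, 5.94, 4.84, 8.15 and 7.43 under LPS+ET and 6.73, 9.23, 7.42 and 9.09 under LPS+ET+KU. The LPS gradients of Hist1h2ae spread over more than the differences between treatments, and its log2 fold change was -0.93 ± 0.35 (adjusted p = 0.0747) after etoposide.

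**Figure D2:**
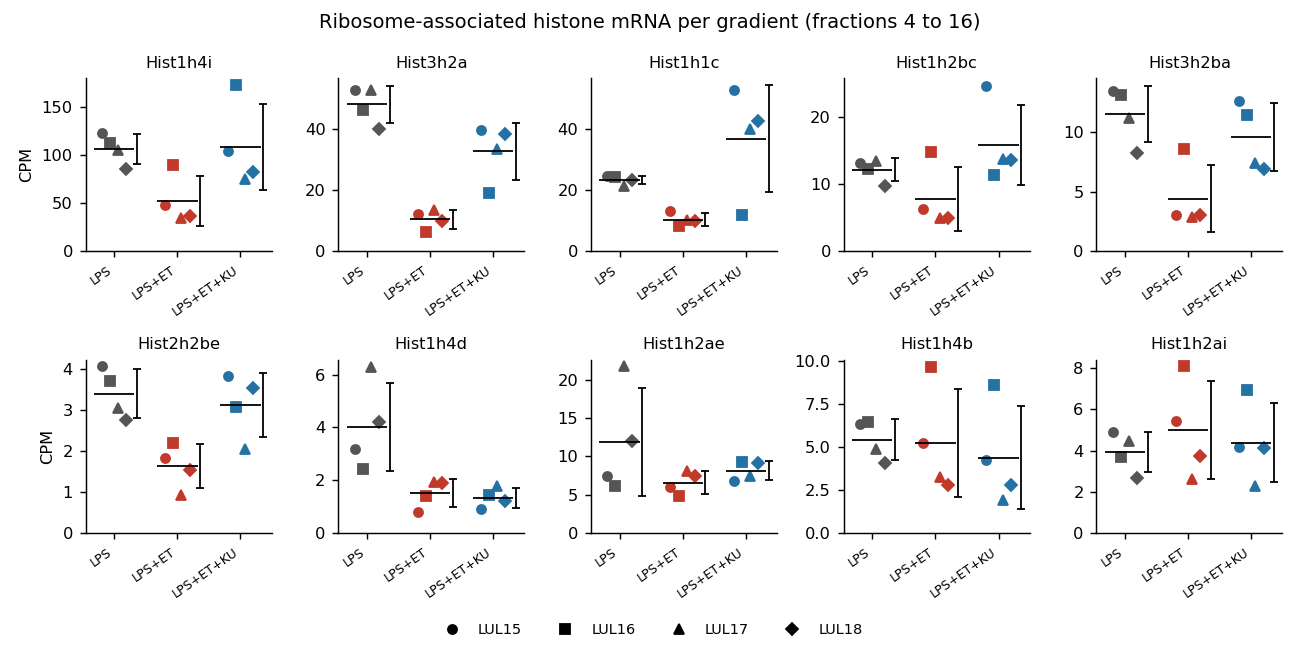
CPM over fractions 4 to 16 (y, from 0) of 10 histone genes in each gradient (symbols for the pools LUL15 to LUL18) by treatment (x), with the mean as a line and the SD as a bar. Hist3h2a fell from 47.9 ± 6.09 CPM in LPS to 10.5 ± 3.06 in LPS+ET with no overlap, and the LUL16 gradient of LPS+ET stands above its group for Hist1h4i, Hist1h2bc and Hist3h2ba.

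Some members had treatments whose 4 gradients did not overlap. In LPS+ET against LPS, 5 of 29 were lower in every gradient (Hist1h1c, Hist1h2be, Hist1h4d, Hist2h2be and Hist3h2a), where 9.08% of all genes were, and 1 (Hist1h2bm) was higher, where 17.3% were. With the inhibitor, 2 were lower than LPS (Hist1h4d and Hist3h2a, 8.43% of all genes) and 0 higher (17.9%). Compared with LPS+ET, 0 were lower (4.19%) and 2 higher (Hist1h2be and Hist3h2a, 4.07%). Hist1h2bm and Hist1h1b were the 2 distal members above 0 in LPS+ET against LPS, Hist1h1b at 0.21 on the log2 scale (adjusted p = 0.904). Hist1h2bm, an H2B gene, had 0.702 ± 0.258 CPM in LPS, 1.63 ± 0.518 under LPS+ET and 2.76 ± 1.66 under LPS+ET+KU. Its counts were 5 to 63 per gradient and its log2 fold change against LPS was 1.12 ± 0.54 (adjusted p = 0.163) and 1.83 ± 0.53 (adjusted p = 0.0254).

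Set out by end, the 10 distal members tested had a median log2 fold change of -1.17 in LPS+ET against LPS, with 8 of 10 below 0 and a range of -2.29 to 1.12. The 18 proximal members had a median of -0.05, with 10 below 0 and 8 above. In LPS+ET+KU against LPS+ET, all 10 distal members had a log2 fold change above 0 (median 1.03, range 0.41 to 1.82), whereas 7 proximal members were above 0 and 11 below (median -0.10). Both comparisons use the same LPS+ET gradients, so the fall and the rise of the distal members are not separate results. Over all genes tested the medians were 0.03 and 0.04. Against LPS the inhibitor group had medians of 0.25 for distal and -0.24 for proximal members. The difference between the classes was not tested as such, and the classes differ in counts per gene, with a median of 104 over the 17 distal and 125 over the 29 proximal members and a highest total of 14797 against 1364.

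**Figure D3:**
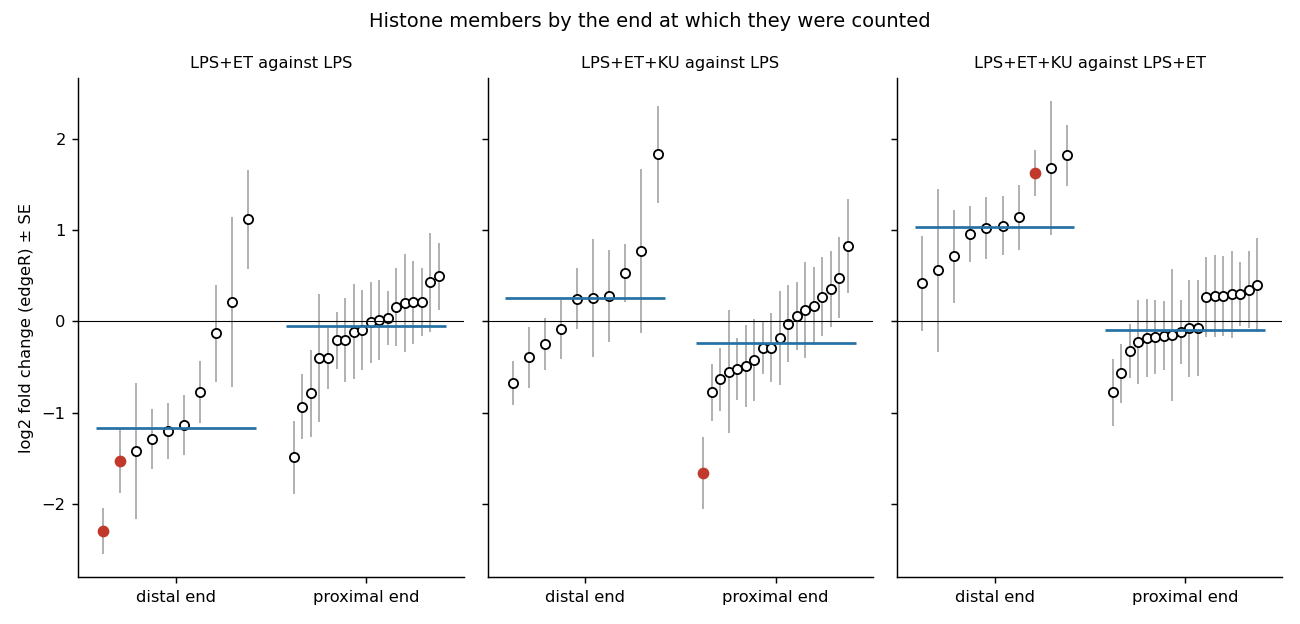
Log2 fold change ± SE from edgeR (y) of each distal and proximal histone member tested, in 3 comparisons of treatments, filled where called at an adjusted p under 0.01, with the class median as a line. The 10 distal members lie around -1.17 after etoposide and all lie above 0 for LPS+ET+KU against LPS+ET, and the 18 proximal members lie around 0. Hist1h2be, which has no majority end, is not drawn.

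The fall of distal histone mRNA after etoposide was seen in each fraction class. In monosomes the distal sum was 196 ± 26.2 CPM in LPS, 63.1 ± 13.7 under LPS+ET and 123 ± 20.4 under LPS+ET+KU, and the 3 treatments did not overlap. In light polysomes it was 354 ± 41.6, 151 ± 68.0 and 363 ± 93.4 CPM, and in heavy polysomes 138 ± 17.8, 60.3 ± 6.47 and 189 ± 43.8 CPM. Without Hist1h4i and Hist3h2a the monosome sum was 52.3 ± 6.81, 25.4 ± 4.04 and 45.1 ± 13.8 CPM, and LPS+ET+KU overlapped LPS. The light sum was then 83.2 ± 10.1, 42.5 ± 20.2 and 104 ± 41.5 CPM, and LPS+ET overlapped LPS. The heavy sum was 41.0 ± 3.70, 19.9 ± 4.82 and 75.5 ± 32.9 CPM. In it LPS+ET+KU of LUL16, at 26.7 CPM, lay below every LPS gradient, and the other LPS+ET+KU gradients lay above them. CPM here is relative to the counts of the class, since the same concentration of RNA went into every library.

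Few members could be tested per class. In monosomes, 7 members were tested and 3 fell in LPS+ET against LPS (9.52% of all genes called): Hist1h4i, Hist3h2a and Hist3h2ba. Hist1h4i had 124, 108, 91.7 and 84.1 monosome CPM in LPS and 36.7, 43.6, 16.5 and 22.4 in LPS+ET, with no overlap, and a log2 fold change of -1.73 ± 0.26 (adjusted p = 0.000354). Hist3h2a was at 41.97 ± 4.49 CPM in LPS and 7.92 ± 4.08 in LPS+ET, with a log2 fold change of -2.36 ± 0.37. Hist3h2ba rested on 1 to 7 counts per LPS+ET gradient, with a log2 fold change of -2.57 ± 0.50. In LPS+ET+KU against LPS and against LPS+ET, edgeR called 0 monosome members (5.96% and 0.213% of all genes), and 4 and 4 had an unadjusted p under 0.05. With the pool as a block the 3 counts were 4, 2 and 2 (24.6%, 23.2% and 5.62% of all genes), the latter pairs being Hist1h4i and Hist3h2a, lower than LPS and higher than LPS+ET. Without LPS+ET+KU of LUL16, 1 monosome member was called against LPS.

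In light polysomes, 19 members were tested. Hist3h2a and Hist3h2ba fell in LPS+ET against LPS (10.6% of all genes called). Hist3h2a went from 71.2 ± 7.25 to 12.3 ± 1.81 CPM, which is -2.65 ± 0.22 on the log2 scale (adjusted p = 3.2e-06), and Hist3h2ba from 24.8 ± 2.83 to 8.61 ± 5.03 CPM (-1.66 ± 0.32, adjusted p = 0.00243). With the inhibitor Hist3h2a stood at 45.0 ± 11.8 CPM, which was called both against LPS (-0.91 ± 0.20, 7.13% of all genes called) and against LPS+ET (1.75 ± 0.22, 0.292%). With the pool as a block 5, 2 and 3 members were called (25%, 24.1% and 5.35% of all genes). The count after etoposide was 1 without LPS+ET of LUL15 or LUL18 and 4 without LPS+ET+KU of LUL16, and without LPS+ET of LUL16 Hist1h4i was called as well (-1.56, adjusted p = 0.00247). The call against LPS was kept only without LPS+ET of LUL16 or LPS+ET+KU of LUL15, and each of the other 10 gradients left out gave 0. The call against LPS+ET was lost without LPS+ET of LUL15, LUL17 or LUL18 or LPS+ET+KU of LUL18 (0 called), and 2 were called without LPS+ET+KU of LUL16.

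In heavy polysomes, 20 members were tested, and Hist1h4i and Hist3h2a fell in LPS+ET against LPS (9.69% of all genes called). Hist1h4i had 65.0, 49.3, 64.6 and 58.6 CPM in LPS, 27.8, 34.9, 30.5 and 28.98 under LPS+ET and 71.8, 83.6, 80.1 and 84.3 under LPS+ET+KU. The treatments did not overlap, and the inhibitor group was the highest, though its difference from LPS was not called (log2 fold change 0.27 ± 0.19, adjusted p = 0.355). The log2 fold change was -1.03 ± 0.20 (adjusted p = 0.0022) after etoposide and 1.30 ± 0.20 (adjusted p = 0.00527) for LPS+ET+KU against LPS+ET, the 1 member called there (0.572% of all genes). Against LPS the inhibitor group had 0 called by edgeR (7.95% of all genes) and 3 with an unadjusted p under 0.05. With the pool as a block 6, 1 and 5 members were called (20.6%, 21.4% and 3.27% of all genes). Without LPS+ET of LUL16 Hist3h2ba also fell after etoposide (-1.23, adjusted p = 0.00568). Without LPS+ET+KU of LUL16 the counts were 4, 1 and 4, and the call against LPS+ET was lost (0) without LPS of LUL15, LUL17 or LUL18, LPS+ET of LUL15, LUL17 or LUL18 or LPS+ET+KU of LUL17 or LUL18.

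Along the gradient, histone mRNA had its highest CPM in the light polysomes. This is its share of the counts of a class, and the amount of mRNA in a class was not measured. The summed CPM of all members was 233 ± 27.5 in monosomes, 456 ± 52.8 in light and 186 ± 30.0 in heavy polysomes of LPS cells. In LPS+ET it was 94.2 ± 19.4, 243 ± 111 and 98.6 ± 8.73, and in LPS+ET+KU 162 ± 23.4, 455 ± 127 and 231 ± 47.0 CPM. By single fraction the sum had its highest mean in fraction 10 in all 3 treatments, at 571 ± 48.8, 324 ± 122 and 611 ± 135 CPM, and single gradients had their highest value in fractions 9 to 11. Distal and proximal members had the same fraction of highest mean.

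**Figure D4:**
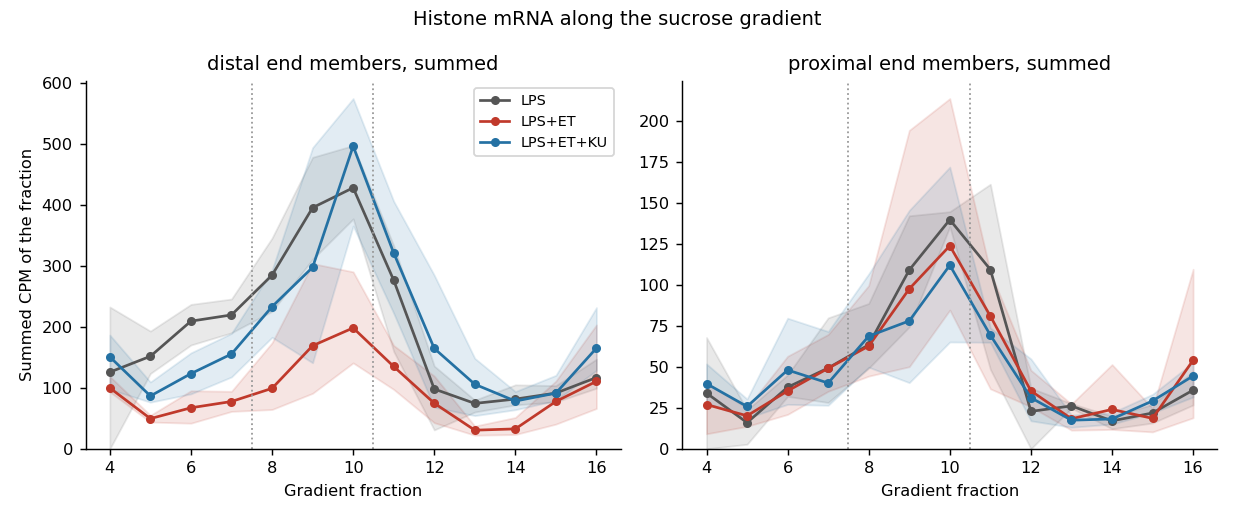
Summed CPM of each fraction library (y, from 0) of the distal and proximal histone members along gradient fractions 4 to 16 (x), as the mean of 4 gradients per treatment with the range shaded, and dotted lines at the limits between monosomes, light and heavy polysomes. Both sets have their highest mean in fraction 10, where distal members reach 429 CPM for LPS, 199 for LPS+ET and 497 for LPS+ET+KU.

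The 3 classes of a gradient were compared in 1 edgeR fit with the gradient as a block (20 members of 11034 genes tested). Heavy against light polysomes had 14 members called in LPS, 8 under LPS+ET and 13 under LPS+ET+KU, all of them lower in heavy polysomes, where 53.4%, 53.5% and 47.6% of all genes were called in either direction and 23.8%, 26% and 23.6% were called lower. The member medians were -1.27, -1.10 and -1.32, against 0.11, 0.02 and 0.01 over all genes. Light polysomes against monosomes had 6, 8 and 7 members called (24.6%, 25.5% and 29.8% of all genes), of which 5, 7 and 7 were higher in light polysomes, with medians of 1.16, 1.34 and 0.78 against -0.01, 0.01 and 0.01. Heavy polysomes against monosomes had 5, 5 and 6 called (51.4%, 49.6% and 54.4% of all genes), of which 0, 2 and 1 were higher, with medians of -0.39, -0.39 and -0.27. Scaling by library totals in place of TMM moved the median of all genes by 0.43 to 0.68 for comparisons with monosomes and by 0.06 to 0.11 for heavy against light polysomes. The member medians of heavy polysomes against monosomes then turned to 0.15, 0.22 and 0.42, while those of the other comparisons kept their sign. Single gradients decided some counts: light polysomes against monosomes had 2 called in LPS without LUL15 or LUL16, 4 in LPS+ET without LUL15 and 5 without LUL16 or LUL18, and 4 in LPS+ET+KU without LUL16. Heavy polysomes against monosomes had 3 in LPS+ET without LUL15 or LUL18, and heavy against light polysomes had 7 in LPS+ET+KU without LUL16.

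Histone coding sequences are short, 309 to 669 bases in 49 members with a length (median 387). The median was 1374 bases over the genes tested between classes that had a length. A short coding sequence has room for fewer ribosomes. The 1704 other tested genes with coding lengths up to 669 bases had median log2 fold changes of -0.99, -0.98 and -0.89 for heavy against light polysomes in the 3 treatments, of the same sign as the members. Among the families, H4 genes are the shortest (309 bases) and H1 genes the longest (636 to 669 bases). In heavy against light polysomes of LPS cells, Hist1h4i had a log2 fold change of -1.86 ± 0.17. Hist3h2ba, of the H2B family (378 to 414 bases), was lower than Hist1h4i, at -2.43 ± 0.21. Hist1h1c, the H1 gene with the most counts, was at -0.25 ± 0.21 (adjusted p = 0.315), with its highest mean in fractions 11, 12 and 11 of LPS, LPS+ET and LPS+ET+KU. In LPS+ET+KU it was higher in heavy polysomes than in monosomes (0.88 ± 0.22, adjusted p = 0.000559). The part of coding length in the position of histone mRNA was not tested.

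Hist2h2be departed from most of the members. For light polysomes against monosomes in LPS, 3 of 7 distal members, Hist2h2be among them, and 1 of 13 proximal members were below 0. The CPM of Hist2h2be was highest in monosomes, at 8.02 ± 1.72 in LPS, against 3.57 ± 0.920 in light and 2.00 ± 0.765 in heavy polysomes. It was lower in light polysomes than in monosomes in LPS (-1.56 ± 0.32) and LPS+ET (-1.96 ± 0.45), and lower in heavy polysomes than in monosomes in all 3 treatments (-2.54 ± 0.32, -3.38 ± 0.47 and -2.33 ± 0.33). The counts behind this were low, with 4 to 27 per gradient in monosomes and 0 to 24 in heavy polysomes. Hist1h2ae had 1, 0, 2 and 0 counts in the LPS+ET monosomes, too few for a fold.

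**Figure D5:**
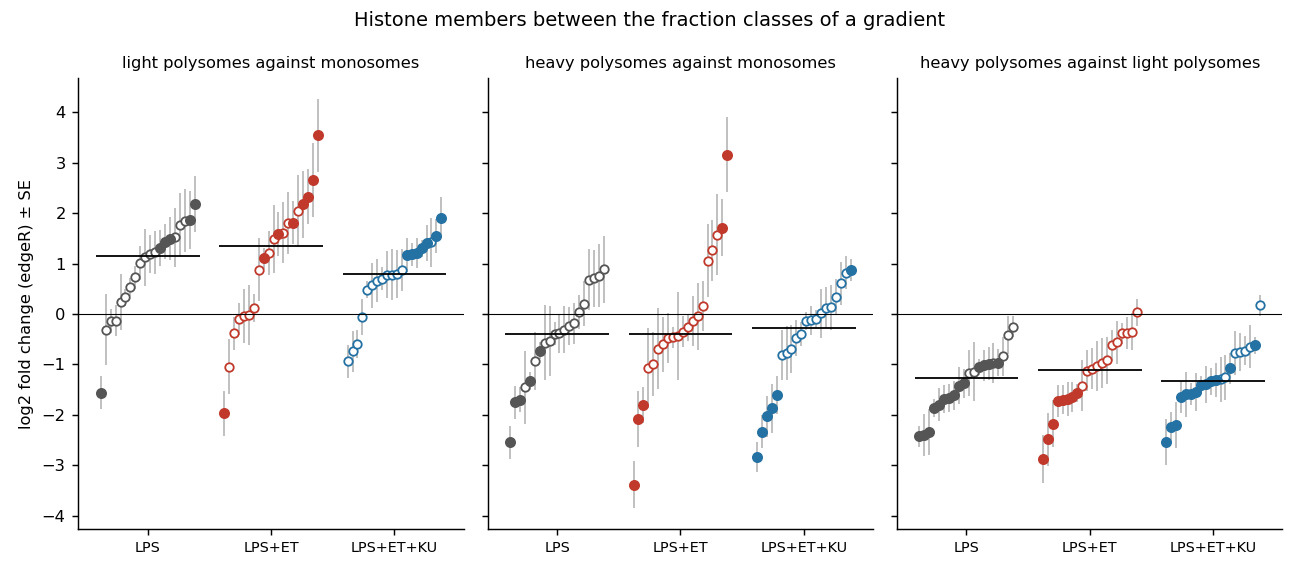
Log2 fold change ± SE from edgeR (y) of the 20 histone members tested between fraction classes, by treatment (x), filled where called at an adjusted p under 0.01, with the median as a line. Nearly all members lie below 0 for heavy against light polysomes (medians -1.27, -1.10 and -1.32), and Hist2h2be is the lowest point for heavy polysomes against monosomes in LPS.

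The share of a gene in heavy polysomes was taken from CPM summed over fractions 11 to 16 as a percent of CPM summed over all 13 fractions, for the 6 members, and 8000 genes in all, whose counts per gradient averaged 100 or more. Hist1h4i had 24.02%, 22.8%, 26.4% and 29.7% in LPS, 27.5%, 38.3%, 45.2% and 37.7% under LPS+ET and 31.5%, 26.4%, 43.7% and 37.97% under LPS+ET+KU. The groups overlapped, and the means were 25.7 ± 3.03%, 37.2 ± 7.27% and 34.9 ± 7.55%. Hist3h2ba had 18.3 ± 3.79%, 36.95 ± 14.6% and 33.1 ± 7.41%, and Hist3h2a 34.8 ± 3.94%, 47.2 ± 5.62% and 38.4 ± 9.22%. The median over all genes was 55.3%, 54.1% and 54.6%. All 6 members had a higher mean share in both etoposide groups than in LPS, yet limma called 0 in LPS+ET against LPS (0.312% of all genes), 0 in LPS+ET+KU against LPS (0.863%) and 0 between the etoposide groups (0%), with 4, 3 and 0 at an unadjusted p under 0.05. The direction depended on which members entered. The median change of the logit of the share (log2 scale) was 0.76 in LPS+ET against LPS and 0.66 in LPS+ET+KU against LPS for the 6 members, and with a minimum average of 20 counts per gradient, which let in 22 members, it was -0.02 (11 of 22 above 0) and 0.10 (12 of 22). With shares taken from the counts as deposited the 6 members had medians of 0.41 (5 of 6 above 0, Hist1h2bc below) and 0.26 (6 of 6). Again 0 members were called.

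Genes of related function were looked at beside the members, from lists chosen with earlier results of these data known. Of 10 histone variants that are made outside S phase or have polyadenylated mRNAs, 3 fell after etoposide and 0 rose (median log2 fold change -0.28, against 0.03 over all genes, of which 4.81% were called lower). H2afx had 103, 79.2, 201 and 164 CPM in LPS, 18.7, 21.1, 45.9 and 35.5 under LPS+ET and 30.7, 66.0, 80.4 and 56.2 under LPS+ET+KU. The LPS gradients of H2afx lay above all LPS+ET gradients (log2 fold change -2.27 ± 0.40, adjusted p = 0.00123). H1f0, a linker histone variant, went from 66.2 ± 8.97 to 21.6 ± 7.89 CPM (-1.73 ± 0.34), and Cenpa, the centromeric H3, from 403 ± 55.7 to 203 ± 32.3 CPM (-1.09 ± 0.22). With the inhibitor 0 of the 10 were called against LPS or LPS+ET by edgeR.

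Of 29 factors tested that form or degrade histone mRNA ends, 1 fell after etoposide, no more than the 4.81% of all genes called lower. This was Cstf3, a subunit of the cleavage stimulation factor (3.45 ± 1.04 to 0.862 ± 0.168 CPM). Its level was low, with 0.625 to 1.01 CPM in the LPS+ET gradients. In LPS+ET+KU against LPS, where 4.42% of all genes were called lower and the median of all genes was 0.09, 3 fell, Cstf2, Cstf3 and Cpsf2, and 0 were called between the etoposide groups. Slbp itself had log2 fold changes of -0.23 ± 0.31 and -0.56 ± 0.31 against LPS (adjusted p = 0.663 and 0.216). Of 21 histone chaperones, 1 fell after etoposide (Anp32b) and 3 in LPS+ET+KU against LPS (Set, Anp32b and Cabin1), with medians of -0.31 and -0.45. The 1 of 21 after etoposide is near the 4.81% of all genes called lower. Of 30 S phase genes, 0 were called after etoposide, with 15 above and 15 below 0 (median 0.01), and in LPS+ET+KU against LPS 3 fell (Gins1, Mcm6 and Pola1) and 26 of 30 were below 0 (median -0.33). Between the etoposide groups 0 S phase genes were called, with 25 of 30 below 0 in the inhibitor group. The part of S phase in the histone results was not tested.

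The 7 B cell markers summed to 45664 to 87028 CPM for LPS, 39616 to 133165 for LPS+ET and 31015 to 109996 for LPS+ET+KU, and 0 of 7 were called by edgeR in any comparison. T cell markers (4 of 5 in the table, with Cd3e, Cd3g and Cd8a at under 10 counts per gradient) summed to at most 2.58 CPM, and erythroid markers (2 of 5 in the table, both under 10 counts) to at most 1.40 CPM. Of 4 plasma cell markers only Sdc1 was called, at 5.17 ± 1.57, 61.3 ± 21.95 and 16.3 ± 7.18 CPM. It was higher than LPS in both etoposide groups (12.7% and 10.7% of all genes called) and lower in LPS+ET+KU than in LPS+ET (0.455%). In both comparisons with LPS 2 of the 4 were above 0 and 2 below, and between the etoposide groups all 4 were below. The list summed to 217 to 412, 175 to 963 and 96.8 to 565 CPM. The 5 myeloid markers summed to 25.5 to 48.96, 19.05 to 110 and 23.2 to 80.3 CPM, and Cd14, the LPS co-receptor, rose in LPS+ET+KU against LPS from 0.546 ± 0.133 to 8.65 ± 5.42 CPM. In that comparison 4 of the 5 were above 0 and 1 below. The part of these cell types in the histone results was not tested.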

How the data were processed

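The authors isolated RNA from single gradient fractions, reverse transcribed equal concentrations from poly(A) tails with barcoded primers, removed PCR duplicates by random bases and assigned the reads to genes at counted 3′ end sites. The submitters' processing notes name TopHat2 2.0.12, HTSeq, DESeq2 1.6.3 and the GRCm38 (mm10) build. The deposited values are raw counts per gene and library, without normalization, in 157 libraries. The library of fraction 17 (777 counts, 0 of them in members) was not used. Library totals ran from 14724 to 4170688 counts and do not measure the amount of mRNA in a fraction. Of the columns, 79 matched 1 labelled sample, and 78 matched a treatment and fraction only, so a gradient was followed by its column names.

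Counts were summed per gradient, or per gradient and class, and tested with edgeR 4.0.16 (TMM, filterByExpr, quasi-likelihood test, two-sided) on all 12 gradients with treatment as the term. Heavy shares were tested as logits with limma 3.58.1, with R 4.3.3. A call required an adjusted p (Benjamini-Hochberg) below 0.01, as in the study. The edgeR and limma steps were tested on simulated data. The pools pair the gradients by their column names: deviations from treatment means correlated across genes at 0.350 to 0.833 (median 0.590) in the 12 same-pool pairs, all above 0.1, against -0.648 to 0.328 in 36 different-pool pairs, of which 8 were above 0.1. Deviations cancel out within a treatment, which lowers different-pool values where same-pool values are high. The different-pool values are therefore no separate evidence of pairing. Alternatives were the pool as a block, RLE size factors, no count filter, DESeq2 1.42.0, equal weight per fraction, only the 8 gradients compared, library totals, for shares the counts as deposited and a minimum of 20 counts, and each gradient left out. Named members averaged at least 100 counts per gradient or a call between treatments, with at most 4 called genes per list. Hist1h2be, Hist1h2bm, Hist1h2bk, Hist1h1b, Hist2h2be and Hist1h4b were named after their values were seen, as were the other members in lists of calls. The members and lists were chosen with earlier results of these data known. Stem-loops and poly(A) signals were read from GENCODE M21 transcripts, with 43 members matched by gene ID and 7 by symbol. The p-values of the alternatives carry no correction for their number.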

Additional observations from a re-analysis of the deposited data

Results flagged for a closer look

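Among 60 groups of 4 gradients looked at, 3 had 1 gradient far from the other 3 (the gap to the nearest value over the whole range above Dixon's critical value at the 95% level), and chance gives this in about 1 in 20 groups. Hist1h2bc had 14.8 CPM in LPS+ET of LUL16, where the other LPS+ET gradients had 5.04 to 6.29. Hist3h2ba had 8.59 CPM in the same gradient, where the others had 2.87 to 3.08. The heavy polysome share of Hist1h2bc was 17.4% in LPS of LUL16, where the other LPS gradients had 34.4% to 35.6%.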

How the results depend on the processing

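Counts of called histone members depended on the fit more than their directions did. With the pool as replicate block, members called in LPS+ET against LPS, LPS+ET+KU against LPS and LPS+ET+KU against LPS+ET were 6, 4 and 4 (2, 1 and 1 without it). In the same order they were 4, 2 and 2 in monosomes, 5, 2 and 3 in light and 6, 1 and 5 in heavy polysomes. DESeq2 gave 6, 2 and 2, equal weight per fraction 1, 0 and 0, and only the 8 gradients compared gave 0 for both comparisons of LPS+ET+KU. Without a count filter 0 were called in LPS+ET+KU against LPS, 2 against LPS+ET and 2 in heavy polysomes against LPS+ET. Over all genes, 1618, 1361 and 58 calls became 3403, 3589 and 811 with the block, 2391, 2263 and 412 with DESeq2, 965, 714 and 9 with equal weight, and 0 in the last comparison with 8 gradients. Each gradient left out gave 1 to 5, 0 to 2 and 0 to 3 members over all fractions, 0 to 1 in monosomes against LPS with the inhibitor, 1 to 4, 0 to 1 and 0 to 2 in light and 2 to 4, 0 to 1 and 0 to 4 in heavy polysomes.

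Between classes, library totals gave 15, 13 and 11 called for light polysomes against monosomes in LPS, LPS+ET and LPS+ET+KU, and no replicate block gave 1, 5 and 3. No replicate block also gave 9 and 8 for heavy against light polysomes in LPS and LPS+ET+KU and 3 for heavy polysomes against monosomes in LPS+ET. With library totals the calls of all genes, higher and lower, went from 3140 and 2527 to 5101 and 1426 for heavy polysomes against monosomes in LPS, from 2968 and 2509 to 5202 and 1449 in LPS+ET, and from 3203 and 2805 to 5983 and 1483 in LPS+ET+KU. For light polysomes against monosomes they went from 1423 and 1292 to 3327 and 571, from 1560 and 1252 to 4008 and 509, and from 1767 and 1526 to 4958 and 585. Gradients left out gave 2 to 4, 4 to 6 and 4 to 8 for light polysomes against monosomes, 3 to 4 for heavy polysomes against monosomes in LPS+ET and 7 to 13 for heavy against light polysomes in LPS+ET+KU. Among single genes, the sign turned for Hist1h4d between the etoposide groups with equal weight (0.28), and for Hist1h4i in LPS+ET+KU against LPS without LPS+ET+KU of LUL17 (0.0378) or LUL18 (0.0023), while each of the other 10 gradients left out kept it below 0 (to -0.411). The causes were not tested, and low counts limit 21 members with under 100 counts.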
